A study of Mus musculus with 4 samples.

Results

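The genes described here are 30 genes of B cells and of the plasma cells that arise from them, chosen by name from what they are known to do, and measured in splenic dendritic cells (DC). Earlier results of these data were known when they were chosen. Every probe set annotated with exactly 1 symbol, that of a member, was taken. This gave 40 probe sets for 25 of the 30 genes, out of 45037 probe sets and 17097 genes in the table. The other 5 genes (Fcmr, Lyn, Cd38, Mzb1 and Sdc1) were not analysed here. There were 4 arrays, with 1 array each for MARCO-/- DC with LPS, WT DC with LPS, MARCO-/- DC with PBS and WT DC with PBS. The DC came from the spleens of mice 8 to 12 weeks old, matched for age and sex. The WT mice were bought from Charles River Laboratories, and the MARCO-/- mice were of a line described earlier. Effects of genotype and of the source of the mice therefore cannot be told apart. MARCO-/- mice lack the scavenger receptor MARCO throughout the body, and the labels give both genotypes the same background, spelled C56BL/6. Cells of 5 to 6 mice were pooled, selected with a CD11c antibody and cultured overnight with LPS, a bacterial ligand of TLR4, or with PBS. Of the 3 DC pools made per genotype, the sources used here do not say which supplied the arrays. With 1 array per condition no difference can be set against replicate error and no test was run, so a gene is called where 2 arrays differ by 2-fold or more, as the study's methods did.

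B cells carry the antigen receptor, an immunoglobulin held by the CD79a and CD79b chains, and pass its signal on through kinases such as LYN, SYK and BTK. The factors PAX5 and EBF1 keep their identity, and BCL6 and BACH2 hold back the change to antibody secretion. LPS is a ligand for B cells as well as for DC: it drives B cells towards plasma cells, a change led by PRDM1 (Blimp-1) and XBP1, with the J chain joining IgM and IgA into polymers. Several members are not particular to B cells. DC or other myeloid cells also express Syk, Btk, Blnk, Cd37, Cd72, Cd180, Bcl6, Pou2f2, Bach2, Xbp1 and Prdm1.

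The cells were selected for CD11c, yet defining genes of B cells lay far above the median of all intensities, 4.86. Ms4a1, which encodes CD20, had an intensity of 884 in MARCO-/- and 1113 in WT DC with LPS, and 647 in MARCO-/- and 787 in WT DC with PBS. Its other probe set had 349, 474, 222 and 294 on the same arrays, in the same order. Cd79b had 496 in MARCO-/- and 765 in WT DC with LPS, and 406 in MARCO-/- and 557 in WT DC with PBS. So both genes were somewhat lower in MARCO-/- than in WT and somewhat higher with LPS than with PBS, all under 2-fold. The probe set of Pax5, in contrast, stayed near the background, with 6.43 and 4.92 with LPS and 6.47 and 4.92 with PBS in MARCO-/- and WT DC. In bulk RNA, fewer cells of a type and less RNA per cell cannot be told apart. Marco had 4.25 in MARCO-/- and 3.15 in WT DC with LPS, and 3.95 in MARCO-/- and 8.05 in WT DC with PBS, all near the background.

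Promoters of 24 of the 30 members are held in RefSeq's table for build GRCm38.p6, and the 250 bases before the start of each were read, to show 2 letter patterns linked to B lineage factors. The octamer ATTTGCAT, bound by POU2F2 with its partner POU2AF1, occurs on either strand in 1.6% of 32851 such windows of the genome, and among the members in those of Vpreb3 and Blnk. The pattern CCCNNGGG, the core of sites bound by EBF1, occurs in 11.8% of all windows, and among the members in those of Cd22, Bank1 and Sdc1. The motifs were searched on both strands and do not overlap each other in the windows shown. The 4 measured members with a match are shown first, then Jchain, the member with the widest spread of intensities, in which neither pattern was found. Capitals mark the matches. A match is only a description of these letters.
Vpreb3, chr10:75948050-75948299, plus strand: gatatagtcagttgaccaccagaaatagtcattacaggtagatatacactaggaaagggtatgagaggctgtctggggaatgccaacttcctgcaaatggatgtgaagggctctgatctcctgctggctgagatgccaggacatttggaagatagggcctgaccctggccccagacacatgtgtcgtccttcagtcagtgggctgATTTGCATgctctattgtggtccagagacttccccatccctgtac
Blnk, chr19:40994222-40994471, minus strand: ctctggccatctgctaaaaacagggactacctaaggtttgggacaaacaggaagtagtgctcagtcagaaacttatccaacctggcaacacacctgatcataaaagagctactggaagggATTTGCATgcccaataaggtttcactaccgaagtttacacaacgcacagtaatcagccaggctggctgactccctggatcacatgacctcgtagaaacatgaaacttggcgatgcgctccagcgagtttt
Cd22, chr7:30879029-30879278, minus strand: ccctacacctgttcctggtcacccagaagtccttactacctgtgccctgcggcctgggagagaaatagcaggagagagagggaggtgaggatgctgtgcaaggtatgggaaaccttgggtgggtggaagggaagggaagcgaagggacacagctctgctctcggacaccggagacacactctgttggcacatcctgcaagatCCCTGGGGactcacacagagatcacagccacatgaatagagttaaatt
Bank1, chr3:136326067-136326316, minus strand: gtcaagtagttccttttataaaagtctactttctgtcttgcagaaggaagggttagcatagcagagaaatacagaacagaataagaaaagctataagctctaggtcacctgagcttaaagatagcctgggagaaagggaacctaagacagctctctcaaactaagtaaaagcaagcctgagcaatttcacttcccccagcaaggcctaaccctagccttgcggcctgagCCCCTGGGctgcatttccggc
Jchain, chr5:88527898-88528147, minus strand: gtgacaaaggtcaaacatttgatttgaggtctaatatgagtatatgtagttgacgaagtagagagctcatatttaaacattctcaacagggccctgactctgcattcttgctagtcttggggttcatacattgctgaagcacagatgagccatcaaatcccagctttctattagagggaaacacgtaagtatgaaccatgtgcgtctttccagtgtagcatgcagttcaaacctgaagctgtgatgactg

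More of these genes passed 2-fold between treatments than between genotypes. In MARCO-/- DC, 4 of 25 genes were at least 2-fold higher with LPS than with PBS (Prdm1, Pou2af1, Bach2 and Pou2f2), where 6.32% of all genes were, and 4 were at least 2-fold lower (Bcl6, Jchain, Cr2 and Cd22), where 5.98% of all genes were. In WT DC, 1 gene was at least 2-fold higher with LPS (Prdm1), against 6.2% of all genes, and 4 were at least 2-fold lower (Cr2, Bcl6, Jchain and Vpreb3), against 8.31% of all genes. All 25 genes lay above the median of all intensities on all arrays. Among the 10960 genes with a value above it, the shares were larger. They were 9.85% higher and 9.32% lower in MARCO-/- DC, and 9.62% higher and 12.9% lower in WT DC. The WT split of 1 higher and 4 lower became 2 and 3 after quantile normalization and 2 and 4 after cyclic loess. The MARCO-/- split of 4 higher and 4 lower became 5 and 4 after centring on the median, with Vpreb3 added, and 4 and 5 after cyclic loess, with Cd180 added. The median log2 ratio of the members was -0.04 in MARCO-/- and 0.00 in WT DC, beside 0.00 and 0.05 over all genes. For the 9 members with a log2 value of at least 8 it was -0.40 and 0.46, beside 0.11 and 0.04 over all genes that bright. Among the 11 measured members that DC or other myeloid cells also express, 3 were higher and 1 was lower with LPS in MARCO-/- DC, and 1 was higher and 1 was lower in WT DC. Each array enters 1 comparison of treatments and 1 of genotypes, so the comparisons are not independent.

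With LPS, MARCO-/- DC exceeded WT DC by 2-fold or more in 3 of the 25 genes (Vpreb3, Prdm1 and Jchain), against 2.09% of all genes, and Ebf1 alone was at least 2-fold lower, where 1.31% were. With PBS, Jchain alone was at least 2-fold higher in MARCO-/- DC, where 0.76% of all genes were, and none was at least 2-fold lower, where 0.287% were. Among genes with a value above the median of all intensities, 3.26% were higher and 2.01% lower with LPS, and 1.19% higher and 0.447% lower with PBS. The median log2 ratio of the members was 0.15 with LPS and -0.04 with PBS, beside 0.00 and 0.01 over all genes. The median with LPS turned to -0.06 after quantile normalization, to -0.08 when each gene's probe sets were averaged and to -0.28 for the 9 members with a log2 value of at least 8, so it gives no direction. Of all genes called with LPS, 61.4% were higher in MARCO-/- DC, a share of 46.9% after quantile normalization, 50.5% after cyclic loess and 71.4% after centring on the median. The 4 members called with LPS were the same under those 3 scalings. Of the 25 genes, 15 were under 2-fold in all 4 comparisons. The same share was not counted over all genes, so nothing is read from it.

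**Figure D1:**
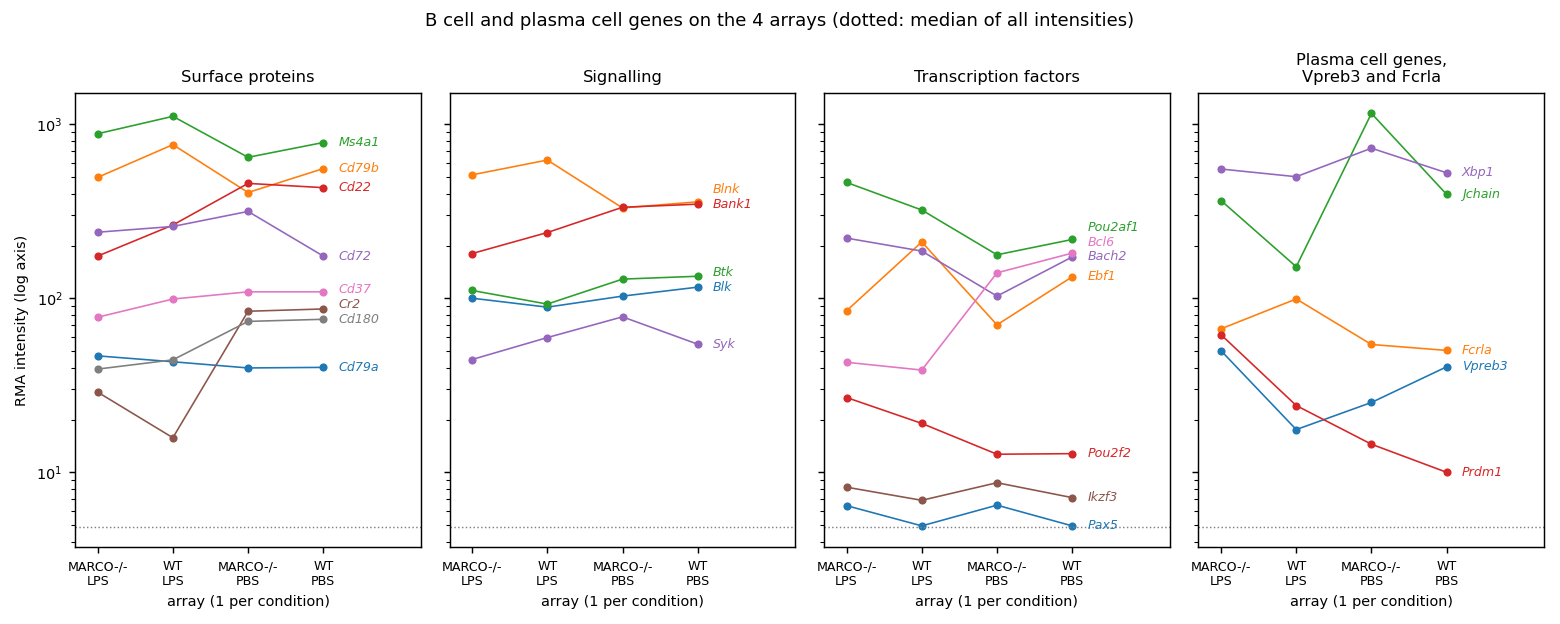
RMA intensity (log axis) of the 25 measured members on the 4 arrays, by role; each point is 1 array, lines join the points of a gene, and the dotted line is the median of all intensities, 4.86. Jchain ranges between 152 and 1157, Prdm1 between 10 and 61.8, and Pax5 stays at 4.92 to 6.47.

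Among the plasma cell genes, Jchain was higher in MARCO-/- DC with either treatment and lower with LPS in either genotype. This gene for the J chain had 365 in MARCO-/- and 152 in WT DC with LPS, and 1157 in MARCO-/- and 396 in WT DC with PBS. The highest array, MARCO-/- with PBS, was 7.61-fold above the lowest, WT with LPS. MARCO-/- DC exceeded WT DC by 2.40-fold with LPS and 2.93-fold with PBS. With LPS Jchain was 3.17-fold lower in MARCO-/- and 2.60-fold lower in WT DC. Jchain has a single probe set, and it was past 2-fold in all 4 comparisons under each scaling.

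Prdm1, which encodes the repressor Blimp-1 that ends the B cell programme, ran the other way with LPS. It had 61.8 in MARCO-/- and 24.2 in WT DC with LPS, and 14.5 in MARCO-/- and 10 in WT DC with PBS. Both LPS arrays were above both PBS arrays, by 4.27-fold in MARCO-/- and 2.41-fold in WT DC. Between genotypes it was 2.55-fold higher in MARCO-/- DC with LPS, and 1.44-fold with PBS, under the threshold. Its only probe set was dim with PBS, and with 16 units added to each intensity the difference between genotypes with LPS was 0.95 on the log2 scale and the LPS response in WT DC 0.63, both under 2-fold. DC also express Prdm1.

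Xbp1, a factor of the unfolded protein response that expands the secretory apparatus, had 554 in MARCO-/- and 500.4 in WT DC with LPS, and 729.9 in MARCO-/- and 527 in WT DC with PBS. The arrays lay within 1.46-fold of each other, and none of its 4 probe sets passed 2-fold. The median log2 ratio of the 3 measured plasma cell genes between genotypes was 1.26 with LPS and 0.53 with PBS, beside 0.11 and -0.17 for the 11 measured genes of 12 that define B cells. With 3 genes this describes Jchain and Prdm1. The 16 measured genes of a further plasma cell list had medians of 0.23 with LPS and 0.11 with PBS. Derl3, a factor of protein quality control in the endoplasmic reticulum of secretory cells, was the only other plasma cell gene called between genotypes: it had 22.1 in MARCO-/- and 10.8 in WT DC with LPS, and 12 in MARCO-/- and 8.48 in WT DC with PBS. With LPS that was 2.05-fold, just past the threshold, and its only probe set was dim on all arrays.

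**Figure D2:**
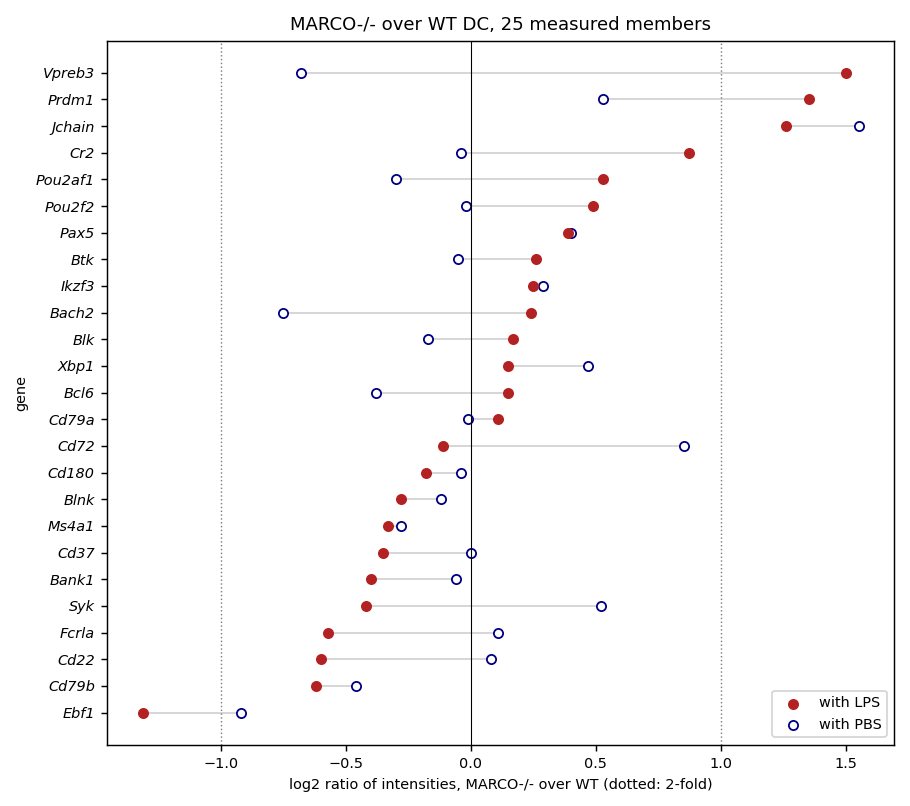
log2 ratio of intensities, MARCO-/- over WT, for the 25 measured members with LPS (filled) and with PBS (open); each point compares 2 arrays and the dotted lines mark 2-fold. Jchain is past 2-fold in both, at 1.26 and 1.55, while Vpreb3 has 1.5 with LPS and -0.68 with PBS.

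Of the 7 transcription factors, the octamer proteins were at least 2-fold higher with LPS in MARCO-/- DC. Pou2af1, the B cell coactivator OCA-B, had 464 in MARCO-/- and 322 in WT DC with LPS, and 178 in MARCO-/- and 218 in WT DC with PBS. With LPS that was 2.61-fold higher in MARCO-/- and 1.47-fold higher in WT DC, so the MARCO-/- array was the higher one with LPS and the lower one with PBS. Pou2f2, which encodes OCT2, had 26.9 in MARCO-/- and 19.1 in WT DC with LPS, and 12.7 in MARCO-/- and 12.8 in WT DC with PBS. It was 2.12-fold higher with LPS in MARCO-/- and 1.49-fold higher in WT DC, and its other probe set had log2 ratios of 1.25 and 0.69.

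Bach2 and Bcl6, both repressors that delay plasma cell formation, went in opposite directions with LPS in MARCO-/- DC. Bach2 had 222 in MARCO-/- and 187 in WT DC with LPS, and 103 in MARCO-/- and 173 in WT DC with PBS. It was 2.14-fold higher with LPS in MARCO-/- and 1.08-fold higher in WT DC, and a further probe set above the background had log2 ratios of 1.20 and 0.39. The PBS array of MARCO-/- DC is the one that stands below the other 3. Bcl6 had 42.9 in MARCO-/- and 38.7 in WT DC with LPS, and 140.2 in MARCO-/- and 182 in WT DC with PBS. Both LPS arrays were below both PBS arrays, 3.27-fold in MARCO-/- and 4.70-fold in WT DC. The other probe set of Bcl6 was past 2-fold as well, with log2 ratios of -1.73 and -1.27. DC express Bcl6 too.

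Ebf1, an early factor of B cell commitment, was the only member at least 2-fold lower in MARCO-/- DC. Its brightest probe set had 84.8 in MARCO-/- and 211 in WT DC with LPS, and 70.4 in MARCO-/- and 133 in WT DC with PBS, so both MARCO-/- arrays were below both WT arrays. The difference was 2.48-fold with LPS and 1.89-fold with PBS. Its probe sets did not run alike: the others had log2 ratios of -0.53 and 0.06 with LPS and -0.48 and -0.62 with PBS. The call with LPS therefore rests on 1 of 3 probe sets. Pax5 and Ikzf3, which encodes Aiolos, lay between 4.92 and 8.71 on all arrays, close to the background, and no difference of theirs passed 2-fold.

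Among the surface proteins, Cr2 and Cd22 were lower with LPS while the chains of the antigen receptor were not. Cr2, the complement receptor CD21, had 28.9 in MARCO-/- and 15.8 in WT DC with LPS, and 84.3 in MARCO-/- and 86.9 in WT DC with PBS. That was 2.92-fold lower with LPS in MARCO-/- and 5.50-fold lower in WT DC, with the PBS arrays almost level. Cd22, an inhibitory receptor for sialic acid on B cells, had 175 in MARCO-/- and 264 in WT DC with LPS, and 458 in MARCO-/- and 433 in WT DC with PBS. With LPS it was 2.62-fold lower in MARCO-/- DC, and its other probe set was lower as well, with a log2 ratio of -1.13. In WT DC it was 1.64-fold lower, under the threshold.

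Cd79a had 46.7 in MARCO-/- and 43.2 in WT DC with LPS, and 39.8 in MARCO-/- and 40.1 in WT DC with PBS, within 1.17-fold over the 4 arrays. Cd79b varied more, within 1.88-fold, and with LPS was 1.54-fold lower in MARCO-/- DC. Cd72, an inhibitory receptor, had 240.0 in MARCO-/- and 259 in WT DC with LPS, and 316 in MARCO-/- and 175 in WT DC with PBS. Its difference between genotypes with PBS, 1.81-fold, came close to the threshold. Cd180, a relative of TLR4 that shapes the response of B cells to LPS, had 39.2 in MARCO-/- and 44.3 in WT DC with LPS, and 73.7 in MARCO-/- and 75.8 in WT DC with PBS. It was 1.88-fold lower with LPS in MARCO-/- and 1.71-fold lower in WT DC. The brighter probe set of the tetraspanin gene Cd37 stayed within 1.40-fold and the other within 1.85-fold.

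Of the 5 measured genes that signal from the receptor, 0 passed 2-fold in any comparison, where 1.05% to 14.5% of all genes did in either direction, so that a count of 0 among 5 is near the background. The adaptor gene Blnk had 513 in MARCO-/- and 624 in WT DC with LPS, and 331 in MARCO-/- and 359 in WT DC with PBS, so both LPS arrays were the higher ones, by 1.55-fold and 1.74-fold. Bank1, a scaffold of B cells, ran the other way, with 181 in MARCO-/- and 239 in WT DC with LPS, and 334 in MARCO-/- and 348 in WT DC with PBS. The kinase genes varied less. Blk, a kinase of the SRC family in B cells, had 100.2 in MARCO-/- and 89.0 in WT DC with LPS, and 103 in MARCO-/- and 116 in WT DC with PBS, within 1.31-fold over the 4 arrays. Btk stayed within 1.44-fold and Syk within 1.76-fold.

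Vpreb3, which encodes a protein of the B lineage, was the member whose order of arrays differed most between treatments. It had 50 in MARCO-/- and 17.6 in WT DC with LPS, and 25.2 in MARCO-/- and 40.4 in WT DC with PBS. MARCO-/- DC were 2.84-fold higher with LPS and 1.6-fold lower with PBS. With LPS it was 1.98-fold higher in MARCO-/- and 2.29-fold lower in WT DC. It has a single probe set, and these opposite responses were not tested. Its WT response missed 2-fold after quantile normalization, at -0.94 on the log2 scale. Fcrla, a protein of the endoplasmic reticulum of B cells that binds immunoglobulin, had 66.8 in MARCO-/- and 99.2 in WT DC with LPS, and 54.3 in MARCO-/- and 50.2 in WT DC with PBS. The WT array with LPS was the highest, 1.97-fold above WT with PBS, and it passed 2-fold after quantile normalization and cyclic loess.

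**Figure D3:**
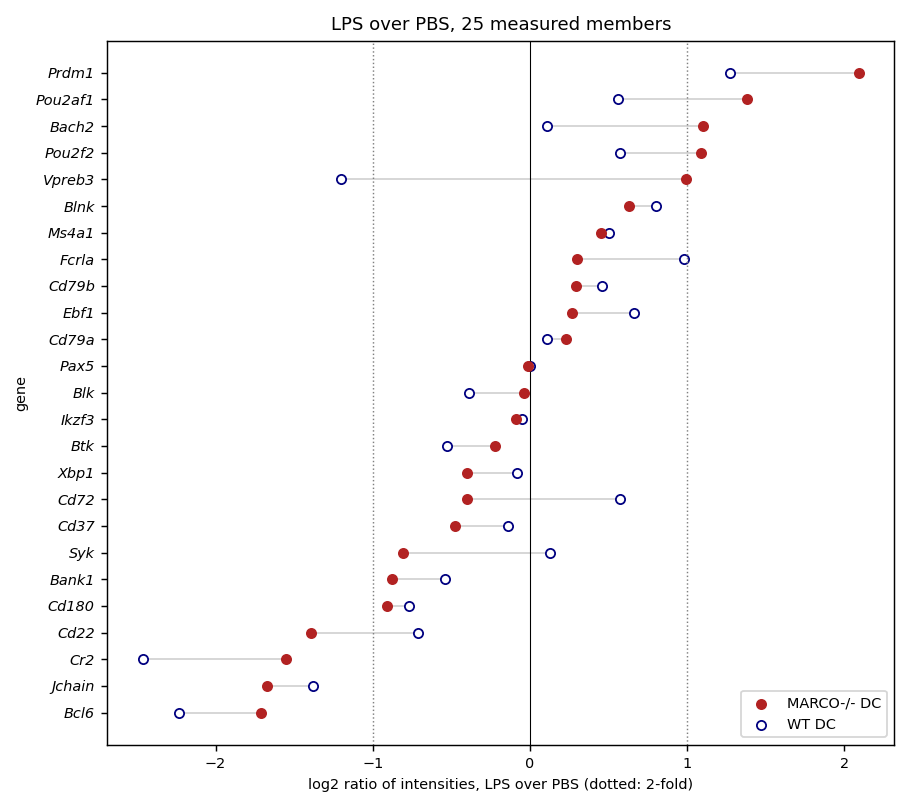
log2 ratio of intensities, LPS over PBS, for the 25 measured members in MARCO-/- (filled) and WT (open) DC; each point compares 2 arrays and the dotted lines mark 2-fold. Prdm1 is past 2-fold at 2.09 and 1.27, Bcl6 at -1.71 and -2.23, and Vpreb3 has 0.99 and -1.20.

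Other genes of the B lineage were counted from a list of 39, of which 34 were measured. With LPS over PBS, 5 were at least 2-fold higher and 9 lower in MARCO-/- DC, and 5 were higher and 13 lower in WT DC. Over all genes the shares were 6.32% higher and 5.98% lower in MARCO-/- DC, and 6.2% higher and 8.31% lower in WT DC. The 5 higher genes were the same in both genotypes: Cxcr5, Id3, Cd40, Tnfrsf13b and Tnfrsf13c. Cxcr5, the receptor that brings B cells into follicles, had 127 in MARCO-/- and 143 in WT DC with LPS, and 19.2 in MARCO-/- and 20.5 in WT DC with PBS. Tnfrsf13b and Tnfrsf13c encode TACI and the BAFF receptor, which bind survival factors of B cells. Tnfrsf13b had 260.1 in MARCO-/- and 265 in WT DC with LPS, and 98.8 in MARCO-/- and 104 in WT DC with PBS. Tnfrsf13c had 242 in MARCO-/- and 325 in WT DC with LPS, and 113 in MARCO-/- and 135 in WT DC with PBS. For all 3 the genotypes lay close together and the LPS arrays stood above the PBS arrays.

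The lower genes included those of MHC class II presentation, which DC share with B cells. H2-Ob, a chain of the modulator H2-O found in B cells and some DC, had 91.1 in MARCO-/- and 102 in WT DC with LPS, and 484 in MARCO-/- and 648 in WT DC with PBS. Ralgps2, Prkcb, Inpp5d, Pik3cd, Cd81, Ltb, Ciita and H2-DMb2 were lower with LPS in both genotypes as well, and Fcer2a, Siglecg, Malt1 and Cd55 passed 2-fold in WT DC. Whether that response differed between genotypes was not tested. Between genotypes with LPS none of the 34 passed 2-fold, beside 2.09% higher and 1.31% lower over all genes. With PBS none was higher and 2 were lower in MARCO-/- DC, beside 0.76% higher and 0.287% lower over all genes. At these shares a count of 0 among 34 is near the background. The 2 lower genes are named next. These were Fcer2a, which encodes the IgE receptor CD23 and had 73.5 in MARCO-/- and 233 in WT DC with PBS, and Cd55, a shield against complement, which had 40.9 in MARCO-/- and 126 in WT DC with PBS. The study had already reported lower CD55 in resting MARCO-/- cells. Earlier results were known when the list was made, so its count is no separate support.

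Of 20 further plasma cell genes, 16 were measured. With LPS over PBS, 3 were at least 2-fold higher in either genotype (Ell2, Eaf2 and Zbp1), and none was lower in MARCO-/- and 2 were lower in WT DC (Cd28 and Herpud1), beside the same shares of all genes as above. Ell2, an elongation factor that serves secretory immunoglobulin mRNA, had 223 in MARCO-/- and 143 in WT DC with LPS, and 65.2 in MARCO-/- and 69.1 in WT DC with PBS. Its partner gene Eaf2 had 29.1 in MARCO-/- and 19.3 in WT DC with LPS, and 7.82 in MARCO-/- and 8.8 in WT DC with PBS. Zbp1, a sensor of nucleic acids that interferon induces in many cells, was 8.83-fold higher in MARCO-/- and 11.54-fold higher in WT DC. Between genotypes, Derl3 with LPS was the only call of the 16 genes, beside 2.09% higher over all genes.

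Markers of the other cells that a CD11c selection could hold were read from the same arrays. With LPS over PBS the 11 genes that define B cells had median log2 ratios of 0.27 in MARCO-/- and 0.11 in WT DC, and their summed intensity was 2402 with LPS and 2073 with PBS in MARCO-/- DC, and 2944 and 2466 in WT DC. Of the 6 DC markers, 1 was higher and 4 were lower with LPS in MARCO-/- DC, and none was higher and 3 were lower in WT DC. The lower ones were Itgax, Cd74 and Ciita in both genotypes and H2-Aa in MARCO-/- DC. Over all genes, 6.32% were higher and 5.98% lower with LPS in MARCO-/- DC, and 6.2% higher and 8.31% lower in WT DC. H2-Aa, Cd74 and Ciita are genes of MHC class II presentation, which DC share with B cells. Zbtb46 had log2 ratios of 1.38 in MARCO-/- and 0.67 in WT DC, and Flt3 had -0.18 and -0.79. The 6 markers had medians of -1.21 in MARCO-/- and -1.05 in WT DC, with a summed intensity of 3727 with LPS and 8942 with PBS in MARCO-/- DC, and 4370.3 and 8748 in WT DC. Itgax, which encodes the CD11c used to select the cells, had 16.4 in MARCO-/- and 12.9 in WT DC with LPS, and 621 in MARCO-/- and 548 in WT DC with PBS. Markers of NK cells, neutrophils and red pulp macrophages had medians of -2.15, -2.12 and -3.21 in MARCO-/- DC, and -1.67, -2.23 and -2.53 in WT DC. T cell markers had -0.40 in MARCO-/- and -0.47 in WT DC, and plasmacytoid DC markers 0.30 and 0.05. Stromal markers had -3.39 in MARCO-/- and 4.35 in WT DC, in opposite directions, and erythroid markers -0.43 and -0.14. RMA scales the arrays to each other, so these ratios are relative to the other RNA of each culture. The part of the mixture of cells in the results above was not tested.

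**Figure D4:**
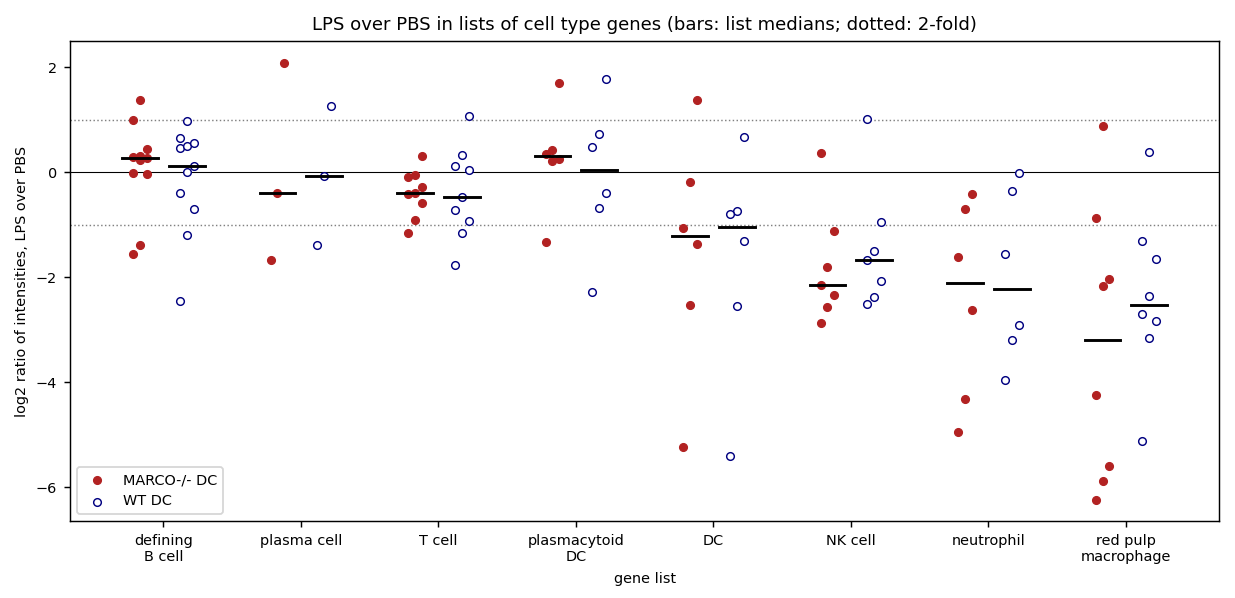
log2 ratio of intensities, LPS over PBS, for the genes of 8 cell type lists in MARCO-/- (filled, left) and WT (open, right) DC; each point is 1 gene, bars are list medians and dotted lines mark 2-fold. The medians of defining B cell genes are 0.27 and 0.11, those of DC markers -1.21 and -1.05 and those of red pulp macrophage markers -3.21 and -2.53.

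Between genotypes, markers of other cells passed 2-fold too. Over all genes, 2.09% were higher and 1.31% lower in MARCO-/- DC with LPS, and 0.76% higher and 0.287% lower with PBS. With LPS the genes that define B cells had a summed intensity of 2402 in MARCO-/- and 2944 in WT DC, with 1 of 11 higher and 1 lower, and with PBS 2073 in MARCO-/- and 2466 in WT DC, with none past 2-fold. At the shares over all genes, none past 2-fold among 11 with PBS is near the background. The median log2 ratios of these 11 genes were 0.11 with LPS and -0.17 with PBS, so with LPS the median and the sum ran in opposite directions. The brightest of the 11 with LPS were Ms4a1, with 884 in MARCO-/- and 1113 in WT DC, and Cd79b, with 496 and 765. Stromal markers, in contrast, had 39.8 in MARCO-/- and 1891 in WT DC with LPS, with 7 of 8 lower, and 584 in MARCO-/- and 44.3 in WT DC with PBS, with 6 of 8 higher. The study had already reported Mgp, Postn and Sparc of this list as higher in resting MARCO-/- cells. Earlier results were known when the list was made, so its counts are no separate support. Erythroid markers (3 of 6 measured) had 6826 in MARCO-/- and 3985 in WT DC with LPS, and 6326 in MARCO-/- and 4396 in WT DC with PBS. Hba-a1 gave nearly all of these sums, with 6792 and 3971 with LPS and 6275 and 4372 with PBS. Of the 8 red pulp macrophage markers, 3 were higher and 3 lower in MARCO-/- DC with LPS, and 2 were higher and 0 lower with PBS. Their summed intensity was 634 in MARCO-/- and 413 in WT DC with LPS, and 2514 in MARCO-/- and 1563 in WT DC with PBS. Of the sums with LPS, Spic alone gave 434 and 247, while the 3 lower markers were C1qa, C1qb and C1qc. Of 7 NK cell markers, 1 was higher and 2 were lower in MARCO-/- DC with either treatment, with sums of 158 in MARCO-/- and 382 in WT DC with LPS, and 691 in MARCO-/- and 1005 in WT DC with PBS. The part of these differences in the ratios of Jchain, Prdm1, Vpreb3 and Ebf1 was not tested.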

How the data were processed

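RNA of splenic DC was hybridised to 4 Affymetrix arrays, named Mouse Genome 430 2.0 in the methods and with perfect-match (PM) probe set IDs in the table,, 1 per condition. The authors summarised probe sets with RMAexpress (no version stated in the sources used here), and the deposited values are intensities on a linear scale. Of 45141 probe sets, 104 controls were left out. Genes were named through the platform annotation: 28898 probe sets had exactly 1 symbol, 551 had several and 15588 were not listed. A gene was read from its brightest probe set (highest mean log2 intensity), which gave 17097 genes. Log2 ratios were taken between arrays as deposited and called at 2-fold. The median intensity was 4.72 to 4.97 per array, and the number of arrays limits the precision: without replicates no error can be given.

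All 30 members were to be named, with all 4 values for those past 2-fold, for the genes that define B cells and for the plasma cell genes, and, of the further lists, those past 2-fold. A few values of further genes stand for the rest of their list. Members and lists were chosen with earlier results of these data known. No probe set carried the symbol of Fcmr, Lyn, Cd38, Mzb1 or Sdc1 alone or with others, and these genes were not analysed here. Alternatives were centring, quantile normalization, cyclic loess, other rules for probe sets, filters on intensity, an added constant and other thresholds. The scripts were tested on simulated data. Python 3.11.15, numpy 2.4.6, pandas 2.3.3, matplotlib 3.10.9, R 4.3.3 and limma 3.58.1 were used.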

Additional observations from a re-analysis of the deposited data

Results flagged for a closer look

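Vpreb3 stood out because its arrays ran in opposite directions between groups, by at least 1.5-fold each way. Its log2 ratio of MARCO-/- over WT DC was 1.5 with LPS and -0.68 with PBS, and its log2 ratio of LPS over PBS was 0.99 in MARCO-/- and -1.20 in WT DC. With 1 array per condition the difference was not tested. Both patterns rest on the same 4 values of 1 probe set.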

How the results depend on the processing

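With 1 array per condition, no call has a replicate behind it. No paired analysis was possible because there are no replicates. The medians of the members moved by less than a factor of 1.5 under all 32 alternatives, but they lie near 0 and changed sign under some. Between genotypes with LPS, 0.15 became -0.06 after quantile normalization, -0.08 as the mean of probe sets and -0.28 at log2 8, and with LPS over PBS in MARCO-/- DC, -0.04 became 0.01 after centring. At log2 8, which leaves 9 members, LPS over PBS had medians of -0.40 in MARCO-/- and 0.46 in WT DC. Of 129 alternatives for the 18 single ratios past 2-fold, 119 stayed past it in the same direction. Many of these could not have changed. The filters on intensity leave a ratio as it is, and so do the rules for probe sets where a gene keeps the same single probe set. The 119 is therefore no measure of robustness. Ebf1 between genotypes with LPS turned to 0.06 without probe sets ending in x_at, s_at or a_at, which leaves another of its probe sets, and was -0.60 as the mean of its probe sets. With 16 units added, ratios under 2-fold were 0.97 (Vpreb3) and 0.95 (Prdm1) between genotypes with LPS, 0.58 (Pou2f2) and 0.99 (Bach2) with LPS in MARCO-/- DC, and 0.63 (Prdm1) and -0.75 (Vpreb3) with LPS in WT DC. Bach2 had 0.77 as the mean of its probe sets, and Vpreb3 in WT DC -0.94 after quantile normalization. Between genotypes with LPS, the 3 higher members became 1 with 16 units added, 1 among genes with a log2 value of at least 8, and 0 at 3-fold. The 1 lower member became 0 at log2 8, 0 as the mean of probe sets, 0 without the x_at, s_at and a_at probe sets, 3 at 1.5-fold and 0 at 3-fold. With PBS, the 1 higher member became 2 at 1.5-fold and 0 at 3-fold, and the count of 0 lower members became 3 at 1.5-fold. With LPS over PBS in MARCO-/- DC, the 4 higher members became 2 with 16 units, 1 at log2 8 and 1 at 3-fold, and the 4 lower became 2 at log2 8, 7 at 1.5-fold and 2 at 3-fold. In WT DC, the 1 higher member became 2 after quantile normalization or cyclic loess, 0 with 16 units, 0 at log2 8, 4 at 1.5-fold and 0 at 3-fold, and the 4 lower became 1 at log2 8 and 2 at 3-fold. Filters and thresholds change counts by construction. For the rest the cause was not tested. Dim probe sets, such as those of Pax5 and Ikzf3, lie too near the background to show a difference.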

Other observations

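Immunoglobulin genes, the product that plasma cells secrete, were read after the members had been seen, as the 25 probe sets of 16 symbols that start with Igh, Igk or Igl. Most lay near the background, among them those of Igha and Ighm and most of those of kappa variable genes. The probe set of Igkj1 and both of Iglv1 lay far above it. The probe set of Igkj1 had 2959 in MARCO-/- and 2698 in WT DC with LPS, and 3081 in MARCO-/- and 2398 in WT DC with PBS. The brighter probe set of Iglv1 had 659.7 in MARCO-/- and 743 in WT DC with LPS, and 429 in MARCO-/- and 267 in WT DC with PBS, which was 1.54-fold higher with LPS in MARCO-/- and 2.79-fold higher in WT DC. Of the 25, with LPS 3 exceeded 2-fold upwards and 0 downwards in MARCO-/- over WT DC (of Igkv15-103, Igkv6-15 and Igkv19-93). Over all probe sets, 1.86% were higher and 0.99% lower in MARCO-/- DC with LPS. Other probe sets of these genes were not called, with log2 ratios of -0.28 for Igkv6-15 and -0.37 and 0.73 for Igkv19-93. The bright probe sets had 0.13 (Igkj1) and -0.17 and -0.01 (Iglv1) with LPS. A dimmer probe set, of Igk-V21, had 92.3 in MARCO-/- and 48.7 in WT DC with LPS, and 38.9 and 21.1 with PBS. That was 1.9-fold and 1.84-fold higher in MARCO-/- DC, under the threshold, while the other probe sets of Igk-V21 lay near the background. With PBS none of the 25 passed 2-fold, beside 0.513% higher and 0.442% lower over all probe sets. With PBS 20 lay above 0 and 3 below, where 44.9% of all probe sets lay below. With LPS over PBS, 5 of the 25 were higher and 0 lower in MARCO-/- DC, beside 5.14% higher and 4.98% lower over all probe sets, and 4 were higher and 0 lower in WT DC, beside 4.59% and 7.97%. At these shares a count of 0 lower among 25 is near the background. Immunoglobulin genes are near-identical copies, and several of these probe sets match more than 1 transcript, so the gene named is uncertain.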
